A study of Mus musculus with 19 samples.

Results

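Neurotrophins and their receptors were examined in the CA1 region of the mouse hippocampus as 6 genes, namely the ligands Bdnf and Ntf3, the Trk receptors Ntrk2 and Ntrk3, the p75 receptor Ngfr and the sorting receptor Sort1. These 6 genes were found by symbol among the 48709 genes of the count files, and all 6 passed the filter on low counts that kept 19286 genes for testing. RNA sequencing had been done on CA1 tissue from male C57B/6J mice. The 19 libraries, taken as 1 per animal, had between 26653511 and 38908947 reads each. Young mice (3 months, n = 6) and old control mice (16.5 months, n = 6) received control oligonucleotides, and old anti-miR-mix mice (16.5 months, n = 7) received a mixture of inhibitors against 3 microRNAs (miR-146a-5p, miR-148a-3p, miR-181a-5p). All animals thus carried a lipid nanoparticle injection into the dorsal hippocampus, and the study trained its injected mice in a water maze afterwards. Comparing the old control with the young mice addresses age, and comparing both old groups addresses the inhibitor mixture. Markers of CA1 pyramidal cells summed to between 1047 and 1600 counts scaled per 1000000 reads (CPM) per library, against 136 to 240 CPM for markers of dentate granule cells. These sums depend on the genes chosen and do not measure the share of either cell type.

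Neurotrophins are secreted proteins that support the survival, growth and synaptic plasticity of neurons. They are made as precursors, and cleavage yields the mature forms. Mature BDNF binds the receptor tyrosine kinase TrkB (Ntrk2), and neurotrophin-3 (Ntf3) binds TrkC (Ntrk3) with preference, whereas the precursor forms bind p75 (Ngfr) together with sortilin (Sort1). In the hippocampus BDNF and TrkB are best known for their part in long-term potentiation and memory. TrkB and TrkC both exist as full-length receptors and as truncated receptors without a kinase domain, and the truncated TrkB is abundant in astrocytes. Gene-level counts sum these forms.

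The injected inhibitors and the microRNAs they are directed to are shown because a seed match in a transcript is the shortest sequence link between the treatment and these 6 genes. Mature sequences were taken from RefSeq (GRCm38.p6) and are written 5′ to 3′ with the seed, bases 2 to 8, in capitals. The inhibitors are complementary to their microRNA at every base, and capitals mark the bases opposite the seed.
miR-181a-5p: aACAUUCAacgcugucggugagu
miR-146a-5p: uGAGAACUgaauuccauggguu
miR-148a-3p: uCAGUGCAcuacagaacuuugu
inhibitor of miR-181a-5p: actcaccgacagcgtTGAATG
inhibitor of miR-146a-5p: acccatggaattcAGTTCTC
inhibitor of miR-148a-3p: caaagttctgtagTGCACT
control inhibitor: taacacgtctatacgccca
The 3 seeds differ from each other, and the control inhibitor holds no copy of a seed match. The inhibitor of miR-146a-5p covers all 7 seed bases, and the other inhibitors cover 6 of the 7.

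Matches to the seeds (TGAATGT for miR-181a-5p, AGTTCTC for miR-146a-5p and TGCACTG for miR-148a-3p, sense strand) were searched in the annotated 3′ untranslated regions of protein-coding transcripts. Among the 15344 tested genes with such a region, 36.7% held a match to at least 1 of the 3 seeds, with shares of 19.2%, 13.4% and 15.8% for the seeds in the same order. Bdnf held 1 match, Sort1 1, Ntrk2 5 and Ntrk3 8, whereas no match was found in Ntf3 or Ngfr. The longest annotated 3′ untranslated regions measured 2855 bases in Bdnf, 4268 in Sort1, 5617 in Ntrk2 and 16600 in Ntrk3, and 314 and 1985 in Ntf3 and Ngfr, against a median of 1165 bases over the tested genes. Each site below is a window of 22 bases in GRCm38 with the seed match in capitals, read on the gene's strand.
Bdnf, miR-181a-5p, chr2:109726102-109726123, plus strand: gtttttttcaagcgTGAATGTg
Sort1, miR-146a-5p, chr3:108360968-108360989, plus strand: cgaattcctagtgcAGTTCTCa
Ntrk2, miR-146a-5p, chr13:58933175-58933196, plus strand: aattacagagctgcAGTTCTCt
Ntrk2, miR-181a-5p, chr13:58933314-58933335, plus strand: tggccagctgctaaTGAATGTg
Ntrk2, miR-148a-3p, chr13:58933829-58933850, plus strand: tggattagagtgttTGCACTGg
Ntrk2, miR-148a-3p, chr13:59129239-59129260, plus strand: gacagatactggctTGCACTGg
Ntrk2, miR-146a-5p, chr13:59130333-59130354, plus strand: aaactccgagagccAGTTCTCa
The Bdnf site lies in all 11 protein-coding Bdnf transcripts, 1964 bases after the stop codon. Of the Ntrk2 sites, the 3 upstream ones belong to a transcript with 1428 coding bases, the length class of the truncated receptor. The 2 downstream ones belong to transcripts with 2463 coding bases. All 8 Ntrk3 matches (4 for miR-181a-5p, 2 for miR-146a-5p and 2 for miR-148a-3p) lie in 1 transcript. A match of letters is a description and says nothing of binding.

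Levels between genes were compared as CPM per kilobase of annotated exon. Sort1 was highest at 93.8 ± 8.80 (SD, n = 19) CPM per kilobase, followed by Ntrk2 at 39.2 ± 2.22, Ntrk3 at 9.92 ± 0.651 and Bdnf at 4.63 ± 0.776. Each of these 4 genes had its lowest library above the highest library of the next. Ngfr at 0.984 ± 0.178 and Ntf3 at 0.940 ± 0.234 CPM per kilobase closed the order, and their ranges overlapped, from 0.591 to 1.44 and from 0.462 to 1.35. The union of annotated exons is long in Ntrk3 (30170 bases) and Ntrk2 (19292 bases), so the per-kilobase levels of these genes depend on how many of the annotated exons CA1 uses.

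**Figure D1:**
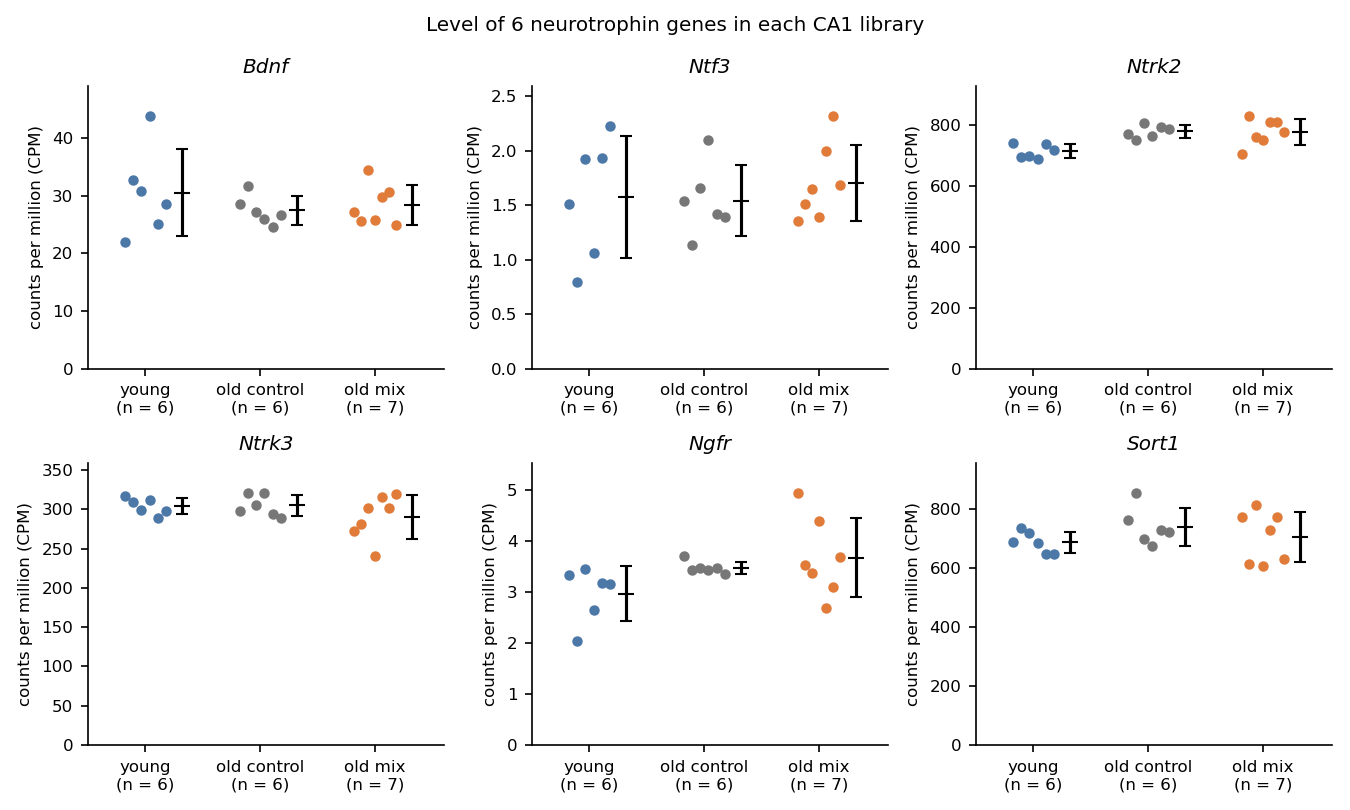
Level of Bdnf, Ntf3, Ntrk2, Ntrk3, Ngfr and Sort1 in CPM (linear axes from 0), with 1 point per library and the mean ± SD beside each group (young, n = 6; old control, n = 6; old anti-miR-mix, labelled old mix, n = 7). The Ntrk2 points of the old control libraries, from 749 to 806 CPM, lie above all young points, which end at 741 CPM, and the groups overlap in the other 5 genes.

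Of the ligands, Bdnf (chromosome 2, 109674700 to 109727007, plus strand, GRCm38) encodes brain-derived neurotrophic factor, the main ligand of TrkB. Its lowest, median and highest levels were 22.0, 29.7 and 43.8 CPM in the young libraries, 24.5, 27.0 and 31.7 CPM in the old control and 25.0, 27.2 and 34.5 CPM in the old anti-miR-mix libraries. The groups overlapped, and the young libraries spread most widely, since both the lowest and the highest of the 19 values were young. The coefficient of variation was 24.8% in the young against 8.94% in the old control and 12.2% in the old anti-miR-mix group, with counting error giving 3.33% to 3.45%. The mean of Bdnf changed by -10.2% from young to old control, which did not pass the test (log2 fold change -0.16 ± 0.12 SE, 95% interval -0.41 to 0.09, adjusted p = 0.537 by edgeR's quasi-likelihood test). That difference depended on single young libraries. Without young replicate 4, the highest, the log2 fold change was -0.02, and without young replicate 1, the lowest, it was -0.23. Between the old groups the value was 0.05 ± 0.12 (adjusted p = 0.929), with an interval from -12.5% to 22.2%. An antisense gene, Gm45346, shares 896 exonic bases with Bdnf, and since the strand setting of the counting is not given, its reads cannot be told apart there.

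Ntf3 (chromosome 6, 126101412 to 126166910, minus strand) encodes neurotrophin-3, the ligand of TrkC, and was the scarcest of the 6 genes in reads, with 21 to 75 reads per library. Its lowest, median and highest levels were 0.792, 1.72 and 2.23 CPM in the young, 1.13, 1.48 and 2.10 CPM in the old control and 1.36, 1.65 and 2.32 CPM in the old anti-miR-mix libraries. The 3 groups overlapped over most of their range. Counting error alone gave a coefficient of variation of 13.9% to 15.3%, against a measured 20.4% to 35.4%. The intervals were accordingly wide, from -27.7% to 31.4% for age (log2 fold change -0.04 ± 0.21, adjusted p = 0.949) and from -17.1% to 47.1% for the inhibitors (0.14 ± 0.20, adjusted p = 0.865). A change in Ntf3 inside these limits cannot be told from none.

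Of the receptors, Ntrk2 (chromosome 13, 58806569 to 59133970, plus strand) encodes TrkB, the receptor of BDNF. Its lowest, median and highest levels were 687, 708 and 741 CPM in the young, 749, 778 and 806 CPM in the old control and 704, 777 and 828 CPM in the old anti-miR-mix libraries. Every old control library was above every young library, and 6 of 7 old anti-miR-mix libraries were above all young ones, replicate 1 at 704 CPM being the exception. The mean of the old control was 9.18% higher than that of the young group (778 ± 20.9 against 713 ± 23.4 CPM, SD, n = 6 each, log2 fold change 0.13 ± 0.038 SE, 95% interval 0.05 to 0.21). With edgeR the unadjusted p was 0.00331 and the adjusted p 0.0759, so that this difference did not pass the threshold of 0.05. Under DESeq2 the adjusted p was 0.0203, with the young and old control libraries alone in the edgeR fit 0.0441, and without old anti-miR-mix replicate 1 0.0340. The other 28 alternatives gave 0.0626 to 0.188, always with a higher mean in the old control.

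The old anti-miR-mix group stood at a like level, 776 ± 42.7 CPM, which was 8.93% higher than the young group (log2 fold change 0.12 ± 0.037, adjusted p = 0.0498). This value was just past the threshold and rose above 0.05 in 21 of 31 alternatives, including 14 of the 19 fits that left out 1 library. These were the fits without young replicate 2, 3, 4, 5 or 6, old control replicate 1, 2 or 4, or old anti-miR-mix replicate 2, 3, 4, 5, 6 or 7, with adjusted p values up to 0.101. Between the old groups the Ntrk2 difference was -0.003 ± 0.037 on the log2 scale (adjusted p = 0.987), with a 95% interval from -5.39% to 5.22%, the narrowest of the 6 genes in this comparison.

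Within the 4 processing numbers that the deposited log2 values had been adjusted for, a possible technical batch, the old control means of Ntrk2 were 760, 785 and 790 CPM in numbers 1, 2 and 4 (2 libraries each). The young means were 741 and 694 CPM (1 library each) and 728 CPM (2 libraries). Number 3 holds no old control library. The old control was thus higher than young in each of the 3 numbers that hold both groups. Old anti-miR-mix was higher than young in numbers 2, 3 and 4 (802, 773 and 808 against 694, 693 and 728 CPM) and lower in number 1, where 1 library of each group gave 704 and 741 CPM.

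Ntrk3 (chromosome 7, 78175959 to 78738012, minus strand) encodes TrkC, the receptor of neurotrophin-3. Its lowest, median and highest levels were 289, 305 and 317 CPM in the young, 290, 302 and 321 CPM in the old control and 241, 302 and 319 CPM in the old anti-miR-mix libraries. The young and old control groups covered nearly the same range, and 3 of the 7 old anti-miR-mix libraries fell below it. The log2 fold change with age was 0.004 ± 0.054 (adjusted p = 0.981, 95% interval from -7.23% to 8.40%). In old anti-miR-mix against old control it was -0.07 ± 0.052 (adjusted p = 0.687). As a percentage this was a change of -4.76%, with an interval from -11.6% to 2.65%. A link of the seed matches in Ntrk3 with this value was not tested.

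Ngfr (chromosome 11, 95568818 to 95587735, minus strand) encodes p75, a receptor of all neurotrophins and, with sortilin, of their precursors. It had 54 to 146 reads per library, with lowest, median and highest levels of 2.04, 3.16 and 3.46 CPM in the young, 3.35, 3.45 and 3.71 CPM in the old control and 2.69, 3.53 and 4.95 CPM in the old anti-miR-mix libraries. The old control libraries lay close together and at the upper end of the young range, while the old anti-miR-mix libraries reached both below and above them. The coefficient of variation in the old control, 3.48%, was below the 9.69% that counting error gives. Ngfr was 17.0% higher in the old control than in the young group (log2 fold change 0.23 ± 0.13, adjusted p = 0.388) and 23.4% higher in old anti-miR-mix than in young (0.30 ± 0.13, unadjusted p = 0.0276, adjusted p = 0.183). Neither passed the adjusted threshold, and between the old groups the value was 0.08 ± 0.13 (adjusted p = 0.889).

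Sort1 (chromosome 3, 108284082 to 108361511, plus strand) encodes sortilin, which binds the precursors of neurotrophins and sorts proteins between the Golgi, endosomes and the surface. Its lowest, median and highest levels were 646, 687 and 734 CPM in the young, 676, 724 and 855 CPM in the old control and 606, 727 and 812 CPM in the old anti-miR-mix libraries. The spread grew from a coefficient of variation of 5.32% in the young to 8.58% in the old control and 12.2% in the old anti-miR-mix libraries, which fell into 3 libraries between 606 and 629 CPM and 4 between 727 and 812 CPM. The log2 fold change was 0.11 ± 0.072 with age (adjusted p = 0.469) and -0.07 ± 0.069 between the old groups (adjusted p = 0.794). An antisense gene, Gm12523, shares 338 exonic bases with Sort1.

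**Figure D2:**
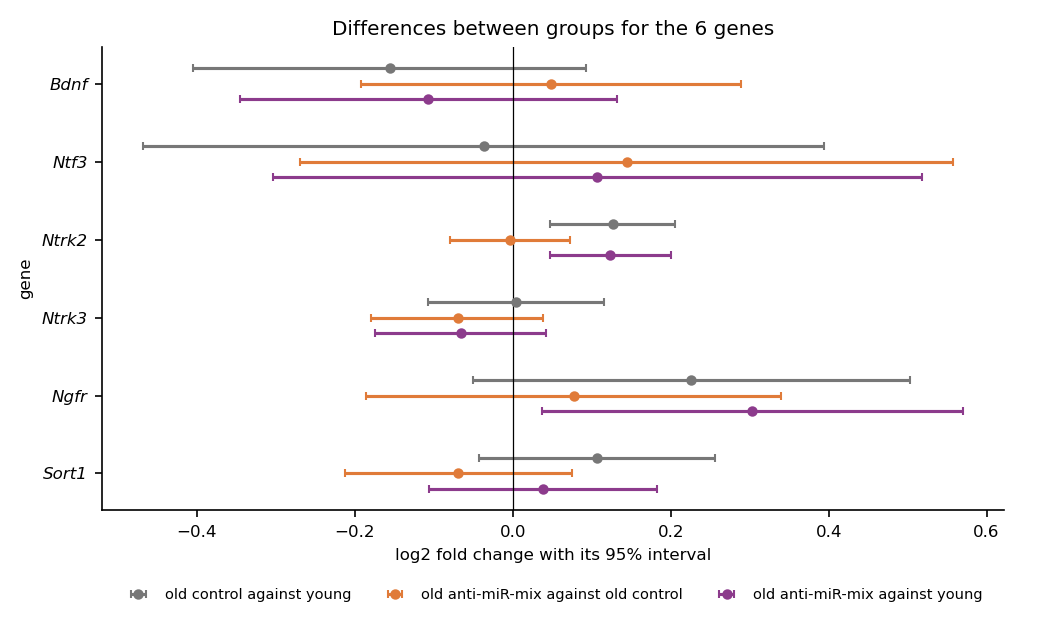
Log2 fold change (points) with its 95% interval (bars) for each of the 6 genes in the 3 comparisons, from edgeR's fit over all 19 libraries. Only the intervals of Ntrk2 (0.05 to 0.21 and 0.05 to 0.20) in both comparisons with young, and of Ngfr (0.04 to 0.57) in old anti-miR-mix against young, leave out 0 before adjustment for the number of genes tested.

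Counted over the group, 0 of the 6 genes passed the adjusted threshold in old control against young by edgeR, where 2.67% of all genes tested passed. At an unadjusted p under 0.05 the count was 1 (18.1% of all genes), DESeq2 called 1 (5.88%) and limma-voom 0 (2.69%). Groups did not overlap in 1 of the 6, Ntrk2, against 2.54% of all genes tested. In old anti-miR-mix against old control 0 of 6 passed (0.669% of all genes), with 0 at an unadjusted p under 0.05 (10.5%), 0 by DESeq2 (1.47%) and 0 by limma-voom (0.581%), and 0 of 6 had groups that did not overlap (0.498% of all genes). In old anti-miR-mix against young 1 of 6 passed, Ntrk2, against 6.2% of all genes. At an unadjusted p under 0.05 the count was 2 (19.6%), DESeq2 called 1 (7.89%) and limma-voom 1 (6.28%), and 0 of 6 had groups that did not overlap, against 2.42%. A single call among 6 genes is not read here as a result about the group. The median log2 fold change of the 6 genes was 0.06, 0.02 and 0.07 in the 3 comparisons, and that of all genes tested 0.006, 0 and 0.003. The age and treatment comparisons share the old control libraries, and both comparisons with young share the young libraries.

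In bulk tissue, fewer cells of a type and less RNA per cell cannot be told apart, so each gene was set beside lists of cell type and tissue markers across the 19 libraries. A further list, of 23 activity-induced and TrkB-responsive genes, was a pathway list and not a marker list. With 6 genes and 16 lists, 96 relations were computed, of which 4 passed an adjusted p of 0.05 by both Pearson's r and Spearman's rho (permutation tests with 100000 resamples, Benjamini-Hochberg adjustment over the 96). The resamples shuffled libraries across groups, so differences between groups enter these p values. The r with group means removed has no p value. Ntrk2 followed the summed level of 8 astrocyte markers (r = 0.74, permutation p = 0.00041, adjusted p = 0.0118; rho = 0.76, permutation p = 0.00025, adjusted p = 0.008). Without the 2 libraries farthest from the median, r was 0.67. With the group means removed it was 0.57, and with the group and the processing number removed 0.82. The astrocyte markers summed to 5353 to 5889 CPM in the young, 5829 to 6463 CPM in the old control and 5477 to 6956 CPM in the old anti-miR-mix libraries. Slc1a2 made up most of that sum, at a mean of 3743 of 5656 CPM in young, while Aldh1l1 was at 54.1 CPM. The sum thus weighs the 8 markers unequally. Of the 8, 0 were higher and 1 lower (Gjb6, a gap junction protein) in old control against young, and 2 were higher (Gfap, an intermediate filament protein, and Slc1a3, a glutamate transporter) and 0 lower in old anti-miR-mix against young. The old anti-miR-mix library with the lowest Ntrk2, replicate 1, also had the lowest astrocyte sum of its group. By rank, Ntrk2 also followed the summed level of 8 microglia markers (rho = 0.70, permutation p = 0.00116, adjusted p = 0.0186), but not by Pearson's r (0.58, permutation p = 0.0095, adjusted p = 0.13), and r was 0.42 without the 2 farthest libraries, 0.25 with the group means removed and 0.39 with group and processing number removed. Microglia markers summed to 325 to 413 CPM in the young, 409 to 482 CPM in the old control and 473 to 625 CPM in the old anti-miR-mix libraries, and 1 of 8 was higher in old control and 7 of 8 in old anti-miR-mix than in young. The part of astrocyte or microglia content in the Ntrk2 difference was not tested.

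Sort1 followed the CA1 pyramidal markers (r = 0.89, rho = 0.88) and the CA2 markers (r = 0.87, rho = 0.88), each with a permutation p of 1e-05, the smallest that the resamples can give, and an adjusted p of 0.00048. It ran opposite to thalamic markers (r = -0.73, permutation p = 0.00049, adjusted p = 0.0118; rho = -0.73, permutation p = 0.0007, adjusted p = 0.0168). These values held without the 2 farthest libraries (0.85, 0.84 and -0.70), with group means removed (0.90, 0.93 and -0.71) and with group and processing number removed (0.92, 0.92 and -0.82). Rgs14 made up most of the CA2 sum, at a mean of 62.35 of 99.74 CPM in young, while Scgn was at 0.317 CPM. The CA2 relation thus weighs its markers unequally. Among the old anti-miR-mix libraries, those with the lowest Sort1, replicates 4, 2 and 7, also had the lowest sums of CA1 markers (1048, 1104 and 1258 CPM, against 1376 to 1526 CPM in the other 4). Thalamic markers, genes typical of the thalamus beneath the hippocampus, summed to 170 to 239 CPM over the 19 libraries. Slc17a6 and Rora made up most of that sum, at means of 80.0 and 70.6 of 212.6 CPM in young. Prkcd, Tcf7l2 and Lef1 were at 13.0, 6.04 and 3.81 CPM there. The part of tissue composition in the Sort1 values was not tested.

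Bdnf correlated with the summed level of 23 activity-induced genes by Pearson's r (0.76, permutation p = 0.00127, adjusted p = 0.0244), but not by rank (rho = 0.37, permutation p = 0.114, adjusted p = 0.521). Without young replicate 4 and old anti-miR-mix replicate 3 the r was 0.30, so the relation rests on those libraries. With both of them kept, r was 0.76 with group means removed and 0.71 with group and processing number removed. Without young replicate 4 alone, a choice made after seeing the data, r was 0.48 and rho 0.26. Young replicate 4 had 3215 CPM of these genes, against 1342 to 2155 CPM in the other 18, and it was also the library with the highest Bdnf. By rank Bdnf followed the CA2 markers (rho = 0.70, permutation p = 0.00107, adjusted p = 0.0186), but not by Pearson's r (0.55, permutation p = 0.012, adjusted p = 0.135), with r = 0.48 without the 2 farthest libraries, 0.57 with group means removed and 0.67 with group and processing number removed. Most of that CA2 sum was Rgs14, as stated above.

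**Figure D3:**
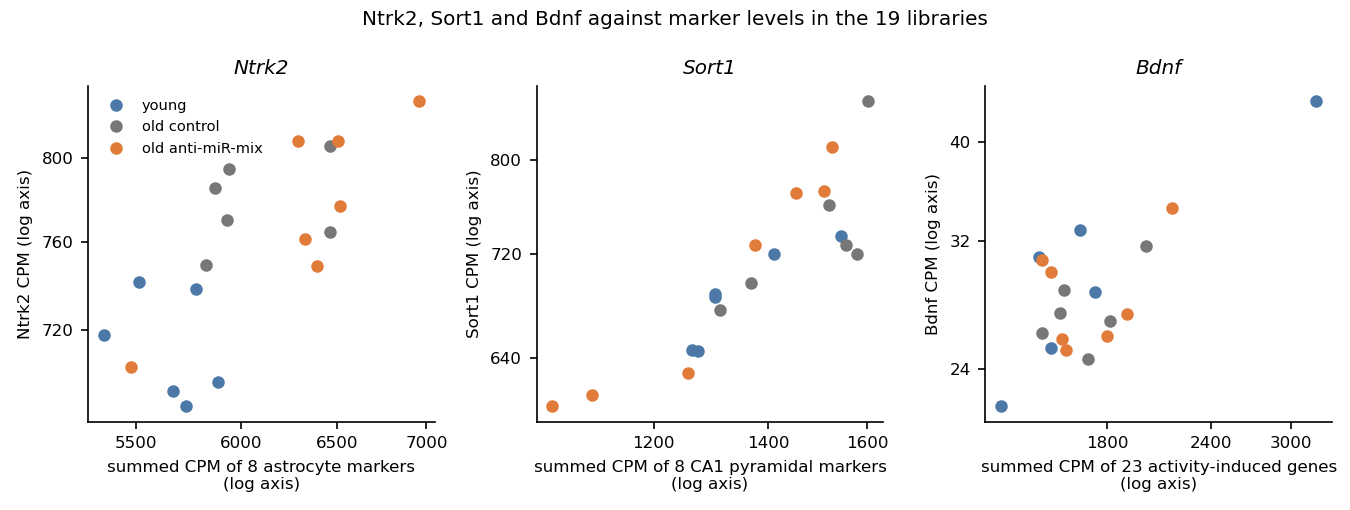
Level of Ntrk2, Sort1 and Bdnf (vertical, CPM, log axis) against the summed CPM (horizontal, log axis) of 8 astrocyte markers, 8 CA1 pyramidal markers and 23 activity-induced genes, with 1 point per library coloured by group. Ntrk2 and Sort1 were higher in libraries with higher sums of their marker lists (r = 0.74 and 0.89, and 0.57 and 0.90 with group means removed). Among the young libraries Ntrk2 did not rise. It was 718 CPM at the lowest astrocyte sum (5353 CPM) and 698 CPM at the highest (5889 CPM). For Bdnf r, 0.76 over all libraries, was 0.48 without the young library at 3215 CPM.

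The genes whose log2 CPM ran most closely with each member over the 19 libraries, among 12780 genes with a mean of at least 100 reads, are given as a description, since all points share libraries, depth and dissection. Sort1 ran with Sorl1, another sorting receptor of the same family (r = 0.97), Nr3c2, the mineralocorticoid receptor (0.96), and 2010300C02Rik (0.96). Bdnf ran with Dnajb5 (0.90) and Hsph1 (0.86), both chaperone genes, and with Tnfrsf25 (0.89), a receptor of the tumour necrosis factor family. Ntrk3 ran with Lrrc7, a postsynaptic density protein (0.89), Eml6 (0.87) and Homer2, a scaffold of glutamate receptors (0.84). Ntrk2 ran with Tmie (0.85), Uvssa (0.84) and Gcfc2 (0.84), Ngfr with B230206H07Rik (0.86), Nol3 (0.83) and Prr13 (0.83), and Ntf3 with Cdhr1 (0.79) and Pcdhb21 (0.77).

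The wider pathway was described by 9 lists with 165 genes tested. Of these, 1 was higher and 2 lower in old control against young, 1 higher and 0 lower between the old groups, and 6 were higher and 8 lower when the old anti-miR-mix group was set against young, which makes 1.82%, 0.606% and 8.48% of the 165, against 2.67%, 0.669% and 6.2% of all genes tested. Over all genes, 881 were higher and 315 lower in the last comparison. The medians of the 165 were -0.002, -0.02 and -0.02 on the log2 scale. Among the other ligands and receptors 0 of 5 tested genes passed in any comparison. Ntf5, which encodes the further TrkB ligand neurotrophin-4, fell under the filter, with a mean of 2.11 reads per library.

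Of 14 tested genes for the processing and secretion of the precursors, 1 passed between the old groups. Mmp2, a secreted metalloproteinase able to cut matrix and growth factor proteins, rose from 2.81 ± 0.341 CPM in old control (n = 6) to 4.85 ± 1.16 CPM in old anti-miR-mix (n = 7; log2 fold change 0.79 ± 0.13 SE, adjusted p = 0.00773). With the processing number as a factor the difference between the old groups was 0.68 and the adjusted p 0.101, and 0.165 with old control replicates 5 and 6 also summed, so the call was lost there. Over all genes, 9 passed in the first of these fits and 6 in the second, against 129 in the main fit. Mmp2 was also higher in old anti-miR-mix than in the young group, at 3.08 ± 0.220 CPM (0.65 ± 0.13, adjusted p = 0.00272). Markers of pericytes, smooth muscle and fibroblasts, cells in which Mmp2 is well known, summed to 282 to 328 CPM in old control and 254 to 330 CPM in old anti-miR-mix, and 0 of 10 passed the test. Rgs5 and Dcn, at 105.5 and 93.0 CPM in old control, made up most of that sum, with log2 fold changes of -0.10 ± 0.05 (adjusted p = 0.509) and -0.37 ± 0.26 (adjusted p = 0.652). Col1a2, Col1a1, Lum and Pdgfrl, named like these after their values were seen, were at 1.13 to 6.46 CPM in old control and had log2 fold changes of 0.78 ± 0.36, 0.62 ± 0.31, 0.43 ± 0.25 and 0.42 ± 0.16, with adjusted p values of 0.332 to 0.581. The rest of the list, Pdgfrb, Vtn, Acta2 and Myh11, had log2 fold changes of 0.061 ± 0.058, 0.035 ± 0.086, 0.066 ± 0.164 and -0.098 ± 0.136. Of the microglia markers, 4 of 8 were higher between the old groups, with a median log2 fold change of 0.34. The part of these cell types in the Mmp2 difference was not tested.

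Among 22 Trk adaptors, only Gab2, a docking protein, passed. It was higher in both old groups than in young (40.0 ± 1.79 and 39.7 ± 2.53 against 34.6 ± 2.77 CPM, log2 fold changes 0.21 and 0.20, adjusted p = 0.0353 and 0.0190). In the Ras-MAPK list of 22 genes, 0 passed with age, and in old anti-miR-mix against young Rps6ka1, a kinase under ERK, was higher by 0.30 (adjusted p = 0.00114) and Spred2, an inhibitor of the route, was lower with a log2 fold change of -0.18 (adjusted p = 0.0363).

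In the PI3K-Akt list of 20 genes, Foxo3, a transcription factor that Akt holds out of the nucleus, fell from 86.1 ± 4.89 CPM in young to 74.1 ± 3.12 CPM in old control (log2 fold change -0.22, adjusted p = 0.00999) and was also lower in old anti-miR-mix (-0.17, adjusted p = 0.0151). Pik3ca, a catalytic subunit of the lipid kinase, and Pdpk1, a kinase that activates Akt, were lower in old anti-miR-mix than in young (-0.12 with adjusted p = 0.0216 and -0.13 with adjusted p = 0.0309). Between the old groups, 0 of the 20 genes passed.

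In the calcium arm of 16 genes, Plcg2, a phospholipase, was higher in old anti-miR-mix than in young (0.61, adjusted p = 0.000736), whereas the calmodulin kinase genes Camk4 (-0.26, adjusted p = 0.00766) and Camkk2 (-0.17, adjusted p = 0.0376) were lower. Of 27 tested genes of p75 and sortilin signalling, only Irak4, a kinase that also serves Toll-like receptors, passed, and it was higher in the same comparison (0.45, adjusted p = 0.0438). Plcg2 and Irak4 are also expressed in microglia, whose 8 markers summed to 325 to 413 CPM in young and 473 to 625 CPM in old anti-miR-mix, with 7 of 8 higher. The part of microglia in both values was not tested.

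Of 23 activity-induced and TrkB-responsive genes, Pcsk1, a convertase of peptide precursors, was lower in old control than in young (-0.51, adjusted p = 0.0224), and Nr4a2, an orphan nuclear receptor, was lower in old anti-miR-mix than in young (-0.24, adjusted p = 0.0432). Of 16 regulators of Bdnf transcription, 0 passed with age. In old anti-miR-mix against young Creb1, the activator that binds Bdnf promoters, was lower (-0.16, adjusted p = 0.0341) and the repressor gene Rest was higher (0.28, adjusted p = 0.0438). The calls for Mmp2, Rps6ka1, Plcg2 and Camk4 against young held in all 31 alternatives, and Foxo3 held in 30 in both comparisons. Those for Nr4a2 and Rest held in 11 and 12, for Camkk2 and Irak4 in 18 each, for Spred2 and Pdpk1 in 19 each, for Creb1 in 23, for Pik3ca in 26 and for Pcsk1 in 27. Gab2 held in 19 with age and in 29 in old anti-miR-mix against young.

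**Figure D4:**
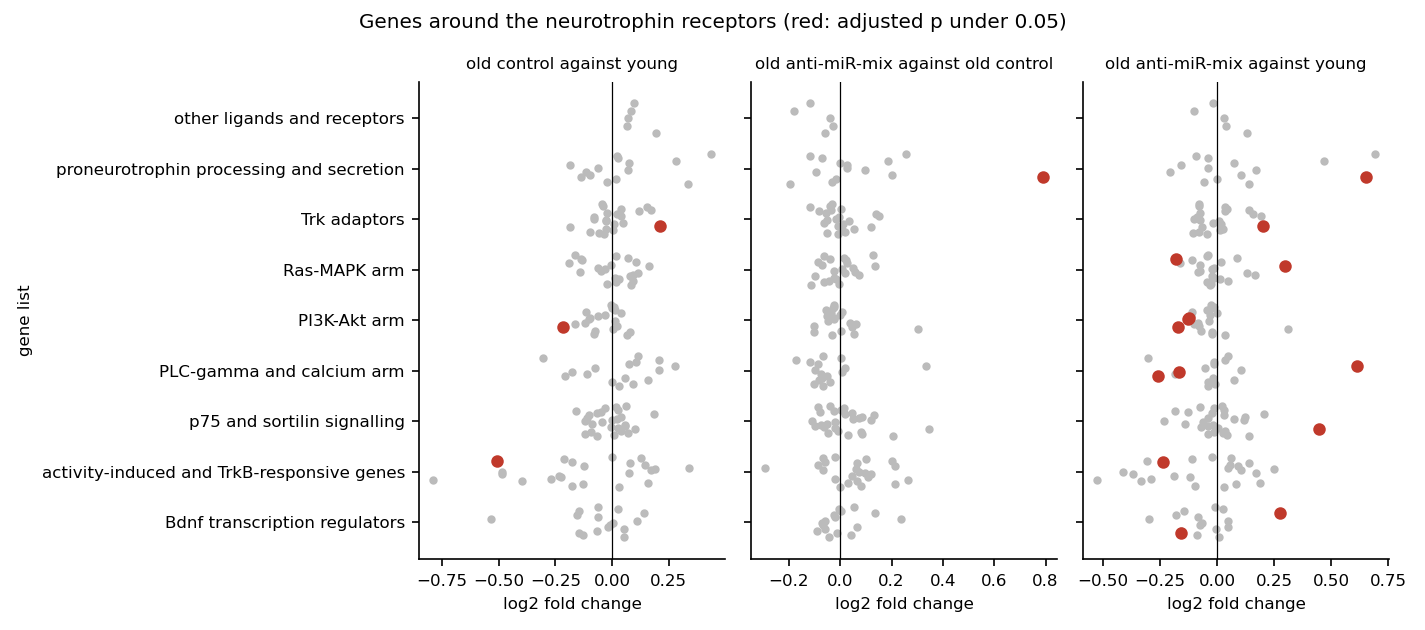
Log2 fold change of each tested gene (points) in 9 lists around the neurotrophin receptors, for the 3 comparisons, with genes past an adjusted p of 0.05 in red. The red points number 3, 1 and 14 of 165 from left to right, and the 1 in the middle panel is Mmp2 at 0.79.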

How the data were processed

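Groups followed the descriptions of the libraries. By the methods and labels, the authors sequenced polyadenylated RNA (TruSeq, single-end reads of 50 bases), aligned to mm10 with STAR 2.5.2b and counted with featureCounts (Subread 1.5.1). Strand and multi-mapping options are not given in the sources used here. The authors deposited raw counts per Ensembl gene and a table of log2 values, which equalled log2(CPM + 1) minus a slope per gene on a number from 1 to 4 per library. This number is called the processing number.

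Genes with at least 5 counts in at least 50% of libraries (19286 of 48709) were tested with edgeR 4.0.16 (R 4.3.3; TMM, quasi-likelihood, 3 groups in 1 fit, no covariate, Benjamini-Hochberg over all genes, threshold 0.05) after a test on simulated data. The study used DESeq2. Symbols came from GENCODE M21 (GRCm38, 48349 IDs matched). Depth was 26653511 to 38908947 reads, and a count of 0 allows up to 3 reads. Intervals are 95%. P values measure the spread between libraries, each taken as 1 animal. Alternatives were DESeq2 1.42.0, limma 3.58.1 (voom, and on the log2 values), other scaling and filters, the processing number or replicate number in the fit, and libraries left out or merged. Named genes were the 6 members, up to 3 higher and 3 lower genes per list and comparison among those past the threshold, and the 3 genes most correlated with each member. Marker genes and further ligands or receptors outside that rule were named after their values were seen. Some genes that these rules name are not reported here. The 6 members and the lists were chosen with earlier results of these data known.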

Additional observations from a re-analysis of the deposited data

Results flagged for a closer look

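Of the 18 combinations of 6 genes and 3 groups tested for a library that stands apart (Dixon's ratio at the 95% level), 1 was picked out. Ngfr in old control replicate 1, at 3.71 CPM, lay above the other 5 old control libraries, which had 3.35 to 3.47 CPM. About 1 in 20 groups is picked out by chance, and the coefficient of variation of this group, 3.48%, was below the 9.69% that counting error gives.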

How the results depend on the processing

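In old control against young, 0 of 6 genes passed the threshold in 28 of 31 alternatives and 1 (Ntrk2) passed with those 2 groups alone, with DESeq2 and in the fits that left out 1 library (0 to 1, the 1 without old anti-miR-mix replicate 1). Over these 31 fits all genes called numbered 212 to 914. Between the old groups 0 of 6 passed in all 31, with 6 to 267 of all genes called. In old anti-miR-mix against young, the 1 gene that passed (Ntrk2) dropped to 0 with median-of-ratios size factors, without a filter, with a filter of 10 counts in 6 libraries, with 2 groups only, with old control replicates 5 and 6 summed, with them summed and the processing number as a factor, and in the replicate block, and leaving out 1 library gave 0 to 1. All genes called in that comparison numbered 892 to 1520 over the 31 alternatives. The cause of the drop was not tested.

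Of the 165 pathway genes, 3 passed in old control against young, but 6 with the filter of 10 counts, 10 with 2 groups only, 11 with DESeq2, 0 with replicates 5 and 6 summed and the processing number as a factor, and 1 to 8 with 1 library left out (1 without old control replicate 2, 8 without young replicate 2 and 5 without old anti-miR-mix replicate 3). All genes called were 514 in the main fit, 557, 768 and 914 in the fits with 6, 10 and 11, and 223 in that with 0. Without those 3 libraries in turn they were 325, 691 and 522. Between the old groups the count of 1 became 2 in the replicate block and with DESeq2, 0 with the processing number as a factor (with and without the sum of 5 and 6), and 1 to 2 with 1 library left out. All genes called there were 129 in the main fit, 249 in the replicate block and 267 with DESeq2. With the processing number as a factor they fell to 9, and to 6 with 5 and 6 also summed. In old anti-miR-mix against young the count of 14 became 8 without a filter, 9 in the replicate block and 7 to 15 with 1 library left out (7 without young replicate 3). All genes called there were 1196 in the main fit, 930 without a filter, 1192 in the replicate block and 1026 without young replicate 3.

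Several log2 fold changes near 0 turned sign, none past the threshold. Ntf3 with age was 0.00651 in the replicate block, 0.0122 and 0.0544 with the processing number as a factor and as a linear term, 0.0885 with it as a factor and 5 and 6 summed, 0.0216 with limma-voom, 0.0348 with limma on the deposited log2 values and -0.155 to 0.0896 with 1 library left out. Ntrk3 with age was -0.00313 with the filter of 10 counts, -0.00728, -0.00508 and -0.00138 with the processing number (factor, linear, factor with 5 and 6 summed), -0.0198 on the deposited values and -0.0116 to 0.0244 with 1 library left out. Between the old groups Bdnf was -0.0793 and -0.0952 with the processing number as a factor (the second with 5 and 6 summed), and Ntrk2 was 0.00676 and 0.00558 in the same fits, 0.00129 with 5 and 6 summed and 0.0134 on the deposited values. With 1 library left out, Bdnf spanned -0.0078 to 0.0924, Ntrk2 -0.0195 to 0.0166 and Ngfr -0.0097 to 0.14 between the old groups, and against young Bdnf spanned -0.181 to 0.0299 and Ntf3 -0.0132 to 0.231 in old anti-miR-mix.

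Replicate numbers were not shown to pair the animals: 5 of 18 same-numbered pairs correlated above 0.1 (-0.17 to 0.21), and 4 of 19 libraries were closest to one of their own number. Old control replicates 5 and 6 were the most alike libraries (chi-square per degree of freedom 2.18, other pairs within a group 6.10 to 35.9), differed by more than sampling noise and were kept apart. Whether they come from separate animals was not tested. With them summed, all genes called fell from 514 to 305 with age and from 129 to 33 between the old groups. Counting error is largest in Ntf3 and Ngfr.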

Other observations

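The 6 genes did not move as a block over the 19 libraries. Of the 15 pairs, the largest Pearson r by size were -0.55 for Ntrk3 with Ngfr, -0.48 for Bdnf with Ngfr and -0.42 for Bdnf with Ntrk2, and the ligand and receptor pair Ntf3 and Ntrk3 gave 0.06. The highest positive r were 0.41 for Bdnf with Sort1 and 0.40 for Ntf3 with Ntrk2. By rank, Bdnf with Sort1 was the largest of all pairs (rho = 0.55). These are descriptions without a test. Sort1 and its relative Sorl1 stood at 739 ± 63.4 and 492 ± 55.7 CPM in old control and 705 ± 86.0 and 454 ± 70.1 CPM in old anti-miR-mix, with means lower together and neither past the threshold (adjusted p = 0.794 and 0.701 by edgeR).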
